A study of Mus musculus with 6 samples.

Results

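The voltage-gated calcium and sodium channel genes were examined in the RNA-seq data of cultured mouse cerebellar granule cells (GCs) after KD of YTHDF2, a reader protein of m6A-modified mRNAs. The members were taken by symbol from the GRCm38 annotation as protein-coding genes of the Cacna1, Cacna2d, Cacnb and Cacng families and of the Scn families that end in a or b. They were 40 of the 53421 genes in the table of counts, 26 calcium and 14 sodium channel genes. A filter on low counts left 32 of them among the 17214 genes tested, 23 for calcium and 9 for sodium. The other 8, Cacna1s, Cacng1, Cacng6, Scn4a, Scn7a, Scn10a, Scn11a and Scn4b, had 0 to 10 counts in every library. The rule for the members used no measured value, but it was chosen with earlier results of these data known.

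The GCs came from C57BL/6 pups given as postnatal day 8, received in culture a lentivirus with either an Ythdf2 short hairpin RNA (shYthdf2, 3 libraries) or a control one (shCtrl, 3 libraries), and were selected with puromycin, so that both groups carry an integrated virus. By their names, both groups consist of replicates 1, 2 and 4, which the study's methods call biological replicates without saying which cultures or animals each number stands for. All shYthdf2 libraries were named for the same hairpin. The sample titles and genotype labels give the groups the other way round from the library names, which were followed here, and every direction below would turn if the titles were right. The counts of Ythdf2, which were not used to assign the groups, run the way the library names say.

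The libraries held 17246821 to 21546595 counts. Normalized counts (counts scaled by TMM to a common library size) of Ythdf2 itself were 618, 841 and 628 in shCtrl replicates 1, 2 and 4, and 501, 402 and 501 in the shYthdf2 replicates. The shYthdf2 mean was 67.3% of the shCtrl mean and the groups did not overlap, with an adjusted p of 0.125 in edgeR's quasi-likelihood test. Replicate 2 stood apart from replicates 1 and 4 in both groups. Over the 32 channel genes, the difference between replicates 1 and 4 had a chi-square of 3.94 per gene in shCtrl and 2.84 in shYthdf2, where counting noise alone gives about 1. Between replicates 1 and 2 it was 136 and 106. Over all genes tested, it was 4.64 in shCtrl and 3.34 in shYthdf2 between replicates 1 and 4. Between replicates 1 and 2 of all genes it was 54.8 and 34.95, so replicate 2 stood apart there as well. In replicate 2 of both groups, 15 of the 32 genes were below the mean of replicates 1 and 4 and 9 were above it, while 8 differed in opposite directions. The fold changes without replicate 2 are therefore given after those of the families.

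Voltage-gated channels open when the membrane is depolarized. Their pore is a single long alpha subunit of repeated domains, whose pore loops set which ion passes: sodium channels start the action potential, and calcium channels turn it into calcium entry for transmitter release, firing patterns and gene expression. Auxiliary subunits set how many channels reach the membrane and how they gate. GCs fire at high rates on sodium channels of their axon initial segment and release glutamate from parallel fibers through P/Q-type and N-type calcium channels.

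In the pore loop of domain III, the codon of the ion-selecting residue differs between the classes of pore genes. The coding sequence of this loop is therefore printed for the pore genes on which the results turn. It was read from the coding transcripts of the GRCm38 annotation, 45 bases in the sense of the gene, with the codon of the ion-selecting residue in capitals. That codon stands for lysine in the sodium channels, glutamate in the high-voltage-activated calcium channels and aspartate in the T-type channels.
Scn3a: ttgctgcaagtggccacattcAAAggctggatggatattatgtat
Scn9a: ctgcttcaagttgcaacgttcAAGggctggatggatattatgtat
Scn2a: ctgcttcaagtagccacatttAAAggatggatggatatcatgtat
Scn8a: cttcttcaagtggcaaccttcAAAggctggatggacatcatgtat
Cacna1g: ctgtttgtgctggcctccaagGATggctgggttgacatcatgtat
Cacna1d: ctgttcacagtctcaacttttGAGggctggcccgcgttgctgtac
Cacna1b: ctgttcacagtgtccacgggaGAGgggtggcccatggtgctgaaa
Cacna1a: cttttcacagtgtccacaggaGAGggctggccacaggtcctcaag

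On GRCm38 the windows of Scn3a (chr2:65469033-65469937, minus strand), Scn9a (chr2:66493907-66494620, minus strand), Scn2a (chr2:65735879-65743097, plus strand) and Scn8a (chr15:101029851-101031742, plus strand) each joined exons 22 and 23 of 27, so the coordinates include the intron between them. The Cacna1g window (chr11:94426450-94426494, minus strand) lay within exon 24 of 38. Those of Cacna1d (chr14:30099234-30100731, minus strand), Cacna1b (chr2:24650619-24651115, minus strand) and Cacna1a (chr8:84581317-84583568, plus strand) each spanned an exon junction. Scn3a had 39 of the 45 bases in common with Scn9a and 27 with Cacna1g. Cacna1g in turn had only 22 in common with Cacna1a, 22 with Cacna1d and 21 with Cacna1b. Identity over the window thus did not part the sodium from the calcium channel genes. Scn2a, Scn3a, Scn1a and Scn9a lie in a cluster on chromosome 2 that also holds Scn7a, with Scn2a on the plus strand and the others on the minus strand. Such similarity limits how reads can be assigned. Of all 50-base words in the exons of Scn3a, 6.49% also occurred in another member, against 5.65% for Scn2a, 4.03% for Scn1a, 4.04% for Scn9a and 0.182% for Cacna1g.

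After YTHDF2 KD, 11 of the 32 channel genes were higher and 2 were lower at an unadjusted p under 0.05 in edgeR's quasi-likelihood test. Those 13 genes were 40.6% of the members, against 20.1% of all genes tested (9.5% higher and 10.6% lower). The higher ones were Scn9a, Scn3a, Cacnb2, Cacna1g, Cacna2d3, Scn1a, Scn2a, Cacna1d, Cacng2, Cacng4 and Cacna2d1, and the lower ones were Cacnb1 and Cacnb4. With Benjamini-Hochberg adjustment over all genes, edgeR called 0 of the 32, against 104 of the 17214 genes (0.604%), so that none of these differences passed the test. Under the same threshold DESeq2 called 4 members (Scn3a, Scn9a, Cacna1g and Cacng2), against 7.67% of all genes, and limma-voom 0, against 0.139%. With the replicate number as a block, edgeR gave 16 members at an unadjusted p under 0.05, against 31.6% of all genes, and 0 after adjustment. These were the same 13 with Cacna1b, Cacna1i and Scn3b. Groups stood apart, with no overlap of their libraries, for 10 members that were higher, where all genes gave 12.6%, and for 2 that were lower (Cacnb3 and Cacnb4), where all genes gave 13.4%. The median log2 fold change of shYthdf2 over shCtrl was 0.12 for the calcium channel genes and 0.24 for the sodium channel genes, and 0.01 for all genes tested. It was positive for 20 members and negative for 12.

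**Figure D1:**
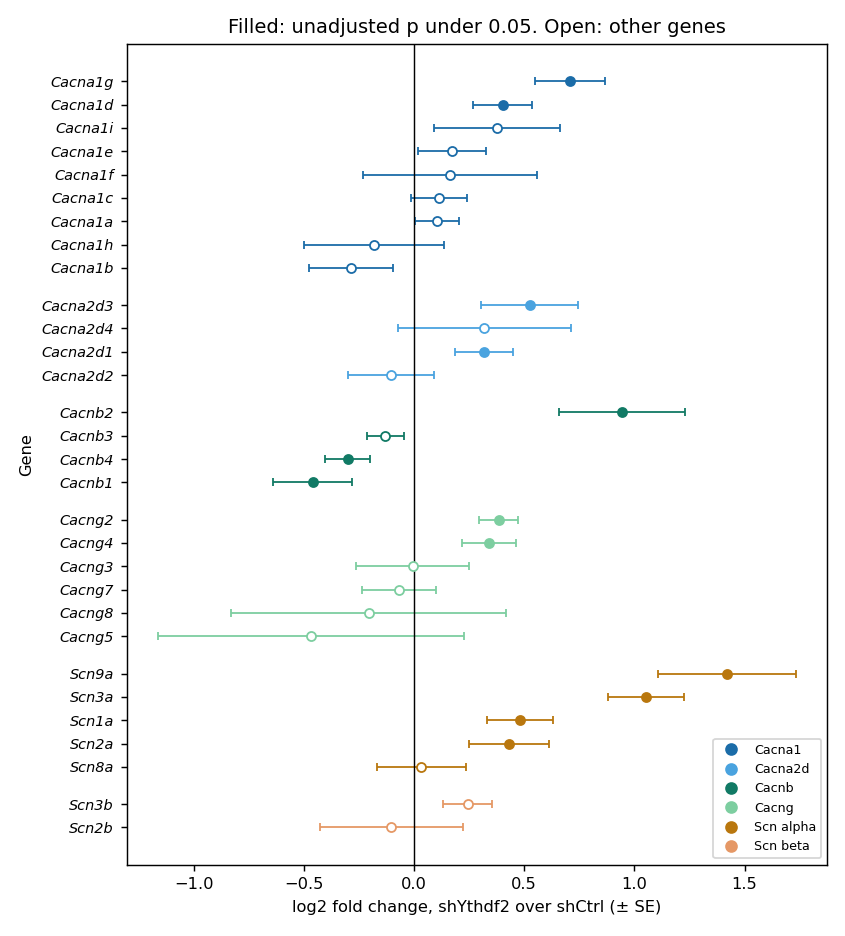
The log2 fold change of shYthdf2 over shCtrl (x axis) of 30 of the channel genes tested (y axis), with its standard error as a line and filled points for an unadjusted p under 0.05. The 5 sodium channel alpha subunit genes drawn lie at or above 0.03, while 3 of the 4 Cacnb genes lie below 0.

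Among the sodium channel alpha subunits, Scn3a and Scn9a had the largest differences. Scn3a encodes a sodium channel that is prominent in the embryonic and newborn brain. Its normalized counts were 281, 392 and 290.0 in shCtrl replicates 1, 2 and 4, and 725, 573 and 703 in the shYthdf2 replicates. All shYthdf2 libraries were above all shCtrl libraries, and in replicate 2 the control was the highest of its group and the KD library the lowest of its own. The shYthdf2 mean of Scn3a was 208% of the shCtrl mean (log2 fold change 1.05, SE 0.17), with an edgeR adjusted p of 0.0527. Scn9a, best known as the channel of pain-sensing neurons, was low: 38.1, 38.7 and 39.5 in shCtrl and 137, 64.0 and 111 in shYthdf2. The shCtrl libraries of Scn9a were nearly alike, and every shYthdf2 library was above them. Its log2 fold change was 1.42 (SE 0.31, edgeR adjusted p 0.0770), and an antisense gene over 180 of its exon bases, Gm13629, never exceeded 10 counts, where Scn9a had 36 or more in each library.

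Scn1a, a channel of fast-spiking interneurons and many other neurons, had 349, 289 and 324 normalized counts in shCtrl and 472, 379 and 494 in shYthdf2. Its groups did not overlap, and replicate 2 was the lowest library in both. For Scn1a, the log2 fold change was 0.48 (SE 0.15, edgeR adjusted p 0.145). Scn2a, the channel of young axons and axon initial segments, had 1908, 2823 and 1948 in shCtrl and 2757, 3514 and 2727 in shYthdf2. Here the groups overlapped, because shCtrl replicate 2 was above shYthdf2 replicates 1 and 4, although each shYthdf2 library was above the shCtrl library of the same number. This gave Scn2a a log2 fold change of 0.43 (SE 0.18, edgeR adjusted p 0.244).

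Scn8a, the main sodium channel of mature axon initial segments, had by far the highest level of the family per length of exon. In shCtrl it had 27.6 ± 5.60 RPKM (counts per kilobase of exon, scaled to library size; SD, n = 3), against 9.22 ± 2.14 for Scn2a, 1.52 ± 0.14 for Scn1a and 1.36 ± 0.26 for Scn3a. The Scn1a and Scn3a levels overlapped between libraries in shCtrl; in shYthdf2 the mean was 2.12 ± 0.29 RPKM for Scn1a and 2.82 ± 0.35 for Scn3a. Scn8a counts were 9270.4, 6307 and 9142 in shCtrl and 9355, 6457 and 9499 in shYthdf2. Replicate 2 was about equally low in both groups, and the log2 fold change of Scn8a was 0.03 (SE 0.20, edgeR adjusted p 0.945).

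The make-up of the summed alpha subunit level was compared as well, which does not depend on the scaling between libraries. Scn3a took 2.83%, 4.61% and 2.94% of the summed RPKM in shCtrl replicates 1, 2 and 4, and 6.30%, 5.95% and 6.07% in shYthdf2. Every KD library was above every control, with a p of 0.1 in the two-sided exact permutation test, the smallest that 3 libraries against 3 can give. The share of Scn8a was 68.5% ± 8.64 in shCtrl and 60.7% ± 6.71 in shYthdf2 (SD, n = 3), and the groups overlapped (exact permutation p 0.3). Scn2a took 23.5% ± 7.73 and 27.4% ± 7.18 (exact permutation p 0.5), with replicate 2 the highest in both groups.

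**Figure D2:**
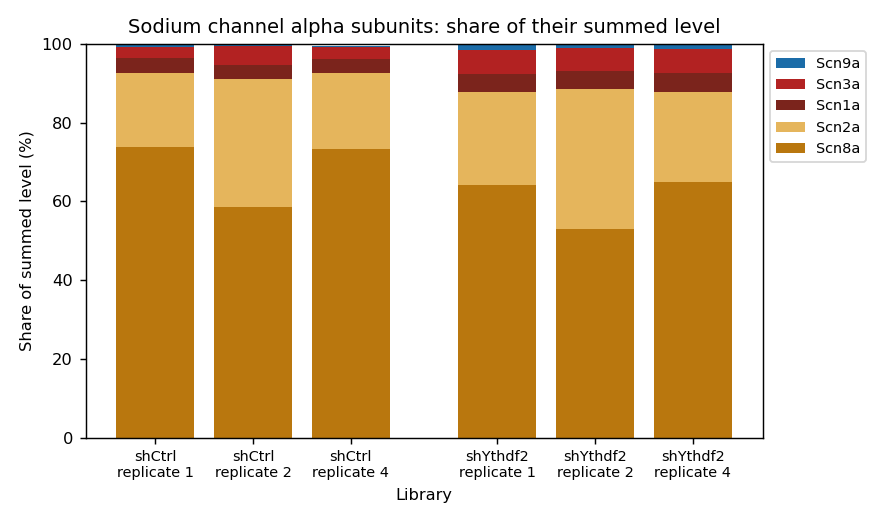
The share of each sodium channel alpha subunit gene in the summed RPKM of the family (y axis, percent), drawn for 5 of its genes, in each of the 6 libraries (x axis). The Scn3a share is 2.83% to 4.61% in shCtrl and 5.95% to 6.30% in shYthdf2, and Scn8a has the largest share in every library.

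Of the sodium channel beta subunits, which carry an immunoglobulin-like domain and tune channel gating, Scn3b had the highest level, 21.1 ± 2.38 RPKM in shCtrl. Its normalized counts were 2002, 2466 and 2092 in shCtrl and 2509, 2776 and 2482 in shYthdf2. All shYthdf2 libraries of Scn3b were above the shCtrl ones, the highest control lying just below the lowest KD library. Its difference was 0.24 on the log2 scale (SE 0.11, edgeR unadjusted p 0.0630, adjusted p 0.275). Scn2b had a log2 fold change of -0.10 (SE 0.32), and its groups overlapped.

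Among the calcium channel pore genes, Cacna1g differed most. It encodes a T-type channel, which opens at low voltage. The normalized counts of Cacna1g were 5769, 6611 and 5562 in shCtrl and 10628, 7674 and 11014 in shYthdf2. The groups did not overlap, and the replicate 2 libraries lay closest to each other. The shYthdf2 mean of Cacna1g was 163% of the shCtrl mean (log2 fold change 0.71, SE 0.16, edgeR adjusted p 0.0799). Per length of exon its mean was 31.1 ± 2.89 RPKM in shCtrl and 50.8 ± 9.50 in shYthdf2 (SD, n = 3). The other T-type genes, Cacna1i and Cacna1h, had log2 fold changes of 0.38 (SE 0.28) and -0.18 (SE 0.32), and the groups overlapped for both.

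Cacna1d, an L-type channel that opens at relatively low voltage, had 1274, 1307 and 1325 normalized counts in shCtrl and 1909, 1395 and 1859.5 in shYthdf2. Its controls were tightly grouped, and replicate 2 was the only KD library close to them. For Cacna1d, the log2 fold change was 0.40 (SE 0.13, edgeR adjusted p 0.158). Cacna1c, the other neuronal L-type gene, had a log2 fold change of 0.12 (SE 0.13), and Cacna1f, the retinal L-type gene, one of 0.16 (SE 0.39).

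The presynaptic channel genes showed smaller differences. Cacna1a, the P/Q-type pore, had 10221, 9216 and 9871 normalized counts in shCtrl and 10757, 9812 and 10931 in shYthdf2. The ranges overlapped, and the log2 fold change of Cacna1a was 0.10 (SE 0.10, edgeR adjusted p 0.597). Cacna1b, the N-type pore, had 9821, 6392 and 9716 in shCtrl and 7694, 5904 and 7678 in shYthdf2. Replicate 2 was the lowest library of both groups, and shCtrl replicate 2 lay below shYthdf2 replicates 1 and 4. The log2 fold change of Cacna1b was -0.29 (SE 0.19, edgeR adjusted p 0.450). Cacna1e, the R-type pore, had 0.17 (SE 0.15).

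Cacna1b and Cacna1a had the highest levels of the family in shCtrl, 45.8 ± 10.3 and 45.1 ± 2.36 RPKM, and their libraries overlapped. Cacna1e (38.8 ± 3.66), Cacna1g, Cacna1c (19.6 ± 2.27) and Cacna1d (5.44 ± 0.11) followed in that order of means, each without overlap with the next, except that Cacna1d overlapped Cacna1i. Cacna1b, at 33.9 to 52.1 RPKM in shCtrl, also overlapped Cacna1e (34.7 to 41.4) and Cacna1g (28.9 to 34.4). As shares of the summed Cacna1 level, Cacna1g took 14.7%, 19.5% and 14.3% in shCtrl and 23.6%, 21.5% and 24.2% in shYthdf2, and Cacna1b took 25.4%, 19.2% and 25.4% against 17.4%, 16.8% and 17.2%. Both pairs of groups stood apart, each with an exact permutation p of 0.1. The Cacna1a share was 23.2% ± 0.81 and 22.3% ± 1.79 (exact permutation p 0.6).

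**Figure D3:**
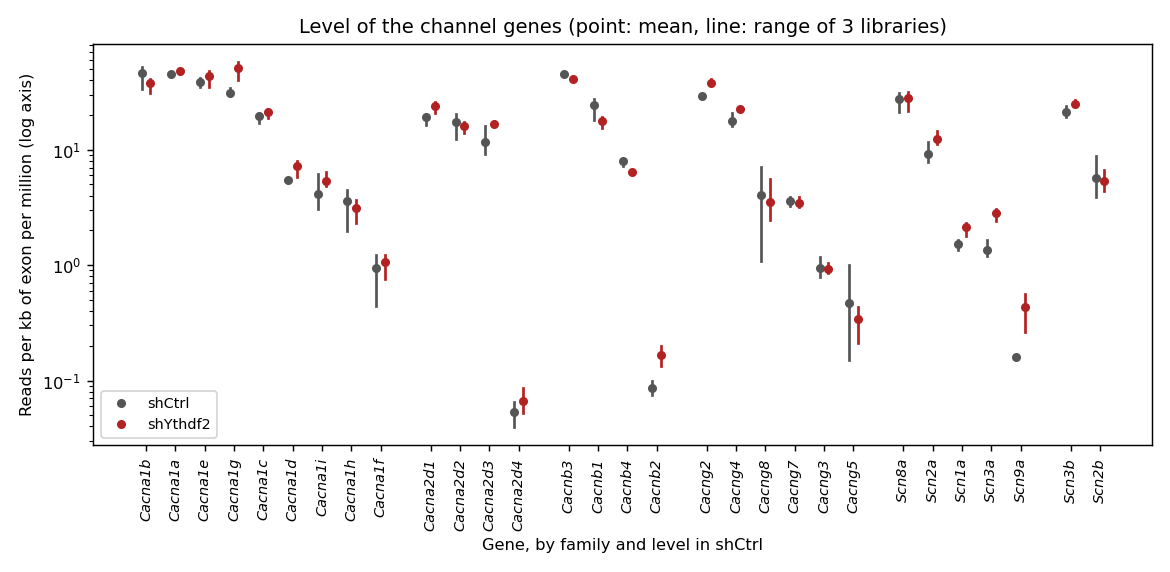
The level of 30 of the channel genes tested in RPKM (y axis, log scale), by family and in order of the shCtrl level (x axis), with a point for the group mean and a line for the range of the 3 libraries. Cacna1b, Cacna1a and Cacnb3 lead at about 45 RPKM in shCtrl, and Cacna1g reaches 50.8 in shYthdf2.

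The Cacna2d genes encode the alpha2delta subunits, extracellular proteins that carry the channels to the membrane. Cacna2d1, the highest of them at 19.2 ± 2.31 RPKM in shCtrl, had 4841, 3893 and 4833 normalized counts in shCtrl and 6144, 4944 and 5817 in shYthdf2. The groups did not overlap, and replicate 2 was lowest in both. In edgeR, Cacna2d1 had a log2 fold change of 0.32 (SE 0.13, adjusted p 0.234). Cacna2d3 had 1560.3, 2675 and 1514 in shCtrl and 2651, 2931 and 2690.5 in shYthdf2. Its shCtrl replicate 2 lay within the range of the KD group, while the other controls were well below it. For Cacna2d3, the difference on the log2 scale was 0.52 (SE 0.22, edgeR adjusted p 0.238). Cacna2d2 and the sparse Cacna2d4 (7.10 to 15.5 normalized counts) had -0.11 (SE 0.19) and 0.32 (SE 0.39). The summed level of the family was 48.3 ± 2.71 RPKM in shCtrl and 56.9 ± 3.55 in shYthdf2, without overlap (exact permutation p 0.1).

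The Cacnb genes encode the cytoplasmic beta subunits, which bind the pore subunit and promote its delivery to the membrane. Cacnb3 led with 44.9 ± 1.60 RPKM in shCtrl, and had 3541, 3298 and 3413 normalized counts in shCtrl against 3062, 3106 and 3203 in shYthdf2. All KD libraries of Cacnb3 were below all controls, with a log2 fold change of -0.13 (SE 0.08, edgeR unadjusted p 0.166). Cacnb4, the gene mutated in the lethargic mouse, had 1418, 1224 and 1392 in shCtrl and 1086, 1145 and 1043 in shYthdf2. Its groups did not overlap either, and the gap was smallest in replicate 2. Over all libraries, Cacnb4 had a log2 fold change of -0.30 (SE 0.10, edgeR adjusted p 0.164).

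Cacnb1 had 2364, 1566 and 2328 normalized counts in shCtrl and 1594, 1314 and 1641 in shYthdf2. Both replicate 2 libraries were the lowest of their groups, and shCtrl replicate 2 lay within the KD range. The log2 fold change of Cacnb1 was -0.46 (SE 0.18, edgeR adjusted p 0.208). Cacnb2 had few counts, 24.8, 21.3 and 18.7 in shCtrl and 33.5, 50.4 and 41.4 in shYthdf2. It was higher in every KD library, with a log2 fold change of 0.94 (SE 0.29, edgeR adjusted p 0.140), but made up 0.11% and 0.26% of the summed Cacnb level. That sum was 77.2 ± 7.30 RPKM in shCtrl and 65.3 ± 2.22 in shYthdf2, without overlap (exact permutation p 0.1).

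Most Cacng genes encode TARPs, which accompany AMPA receptors to the synapse and gate them, rather than calcium channel subunits in the strict sense. Cacng2 encodes stargazin, the TARP that GCs need for AMPA receptors at their synapses, and was the highest at 29.2 ± 0.26 RPKM in shCtrl. Its normalized counts were 3023, 3077 and 3048 in shCtrl and 3818, 4257 and 3860.1 in shYthdf2. The controls differed little, and all KD libraries were above them. The log2 fold change of Cacng2 was 0.38 (SE 0.09, edgeR adjusted p 0.0872), and the antisense gene A730060N03Rik, which overlaps its exons, never exceeded 170 counts, where Cacng2 had 2775 or more in each library. Cacng4 had 1112, 1415 and 1084 in shCtrl and 1502, 1528 and 1544 in shYthdf2. The KD libraries of Cacng4 were alike and above the controls, of which replicate 2 was closest. Its log2 fold change was 0.34 (SE 0.12, edgeR adjusted p 0.187).

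The remaining TARP genes varied more between libraries of a group than between groups. Cacng7 had a log2 fold change of -0.07 (SE 0.17), Cacng3 one of -0.01 (SE 0.26), Cacng8 one of -0.21 (SE 0.62) and Cacng5 one of -0.47 (SE 0.69). Cacng8 ranged from 47.9 to 314 normalized counts in shCtrl, and Cacng5 from 11.0 to 73.6. The summed Cacng level was 56.1 ± 6.23 RPKM in shCtrl and 69.0 ± 2.13 in shYthdf2, without overlap (exact permutation p 0.1).

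**Figure D4:**
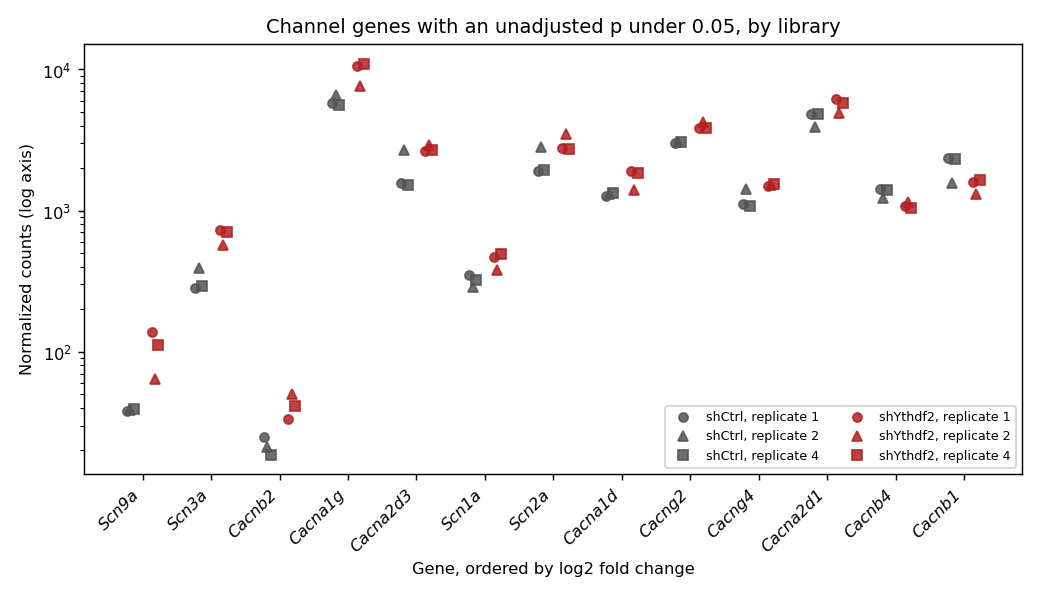
Normalized counts (y axis, log scale) of the 13 channel genes with an unadjusted p under 0.05, ordered by log2 fold change (x axis), with one symbol for each of the 6 libraries. For Scn3a the 3 shYthdf2 libraries lie at 573 to 725 and the 3 shCtrl libraries at 281 to 392; for Cacna2d3, Scn2a and Cacnb1, shCtrl replicate 2 lies within the shYthdf2 range.

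The differences were next taken between libraries of the same replicate number. The 13 genes were higher or lower in the fitted direction in replicates 1, 2 and 4 alike, which is in part a consequence of choosing them by their p. The median size of their log2 difference was 0.53 in replicate 1, 0.32 in replicate 2 and 0.51 in replicate 4. For Scn3a it was 1.36, 0.55 and 1.28, and for Cacna1g 0.88, 0.21 and 0.99. Replicate 2 gave the smallest difference for both. Cacnb2 and Cacng2 did not follow this order, with 1.22 and 0.47 in replicate 2 and 0.42 and 0.34 in replicate 1.

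**Figure D5:**
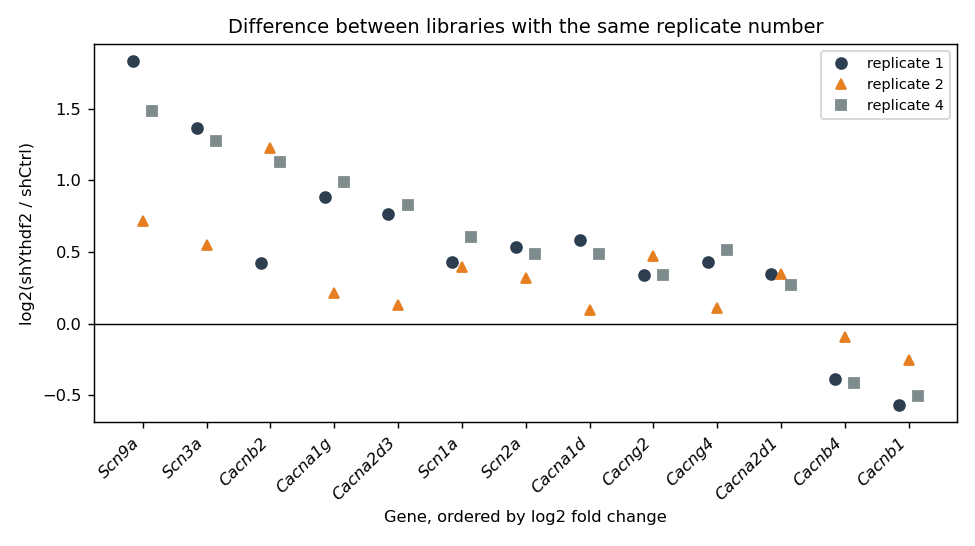
The log2 ratio of the shYthdf2 to the shCtrl library of the same replicate number (y axis) for the 13 genes with an unadjusted p under 0.05 (x axis). Every point lies on the side of 0 of the fitted change, and replicate 2 lies nearest to 0 for 10 of the 13 genes.

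Without both replicate 2 libraries, 23 of 31 channel genes passed an adjusted p under 0.05 in edgeR, 17 higher and 6 lower, against 52.7% of the 17422 genes then tested. All 13 genes above were among them. The log2 fold change then was 1.32 for Scn3a, 1.67 for Scn9a, 0.93 for Cacna1g, 0.79 for Cacna2d3, 0.51 for Scn1a, 0.50 for Scn2a, 0.53 for Cacna1d, 0.47 for Cacng4, 0.33 for Cacng2, 0.30 for Cacna2d1, 0.76 for Cacnb2, -0.54 for Cacnb1 and -0.40 for Cacnb4. Of the other members past the threshold, it was 0.63 for Cacna1i, 0.28 for Scn3b, 0.23 for Cacna1e, 0.11 for Cacna1a, 0.10 for Cacna1c, -0.35 for Cacna1b, -0.31 for Cacna1h, -0.21 for Cacna2d2, -0.16 for Cacnb3 and 1.00 for the sparse Cacng5, which had been negative over all libraries. Scn2b likewise turned, to 0.14, and Cacng8 to 0.68, neither past the threshold. The spread in that fit is only the one between replicates 1 and 4, which lay close together. Leaving out shCtrl replicate 2 alone gave 11 members past the adjusted threshold in edgeR, against 18.3% of all genes: Scn2a, Scn3a, Scn9a, Scn3b, Cacna1g, Cacna1i, Cacna2d3, Cacng2 and Cacng4, which were higher, and Cacnb1 and Cacnb4, which were lower. Leaving out shYthdf2 replicate 2 alone gave 4, against 4.7% of all genes, which were Scn3a, Scn9a, Cacna1g and Cacna1d, all higher. Over the 15 alternatives tried, DESeq2 and limma-voom included, the adjusted p of Scn3a ranged from 1.57e-09 to 0.286, and that of Cacna1g from 1.58e-11 to 0.327.

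The proteins that bind these channels were described from a list of 25 genes, of which 22 were tested. At an unadjusted p under 0.05, 6 were higher and 3 lower, 40.9% of those tested against 20.1% of all genes tested. After adjustment edgeR called 0, against 0.604% of all genes. The median log2 fold change was 0.14, against 0.01 for all genes tested. The smallest p-values were those of Cachd1, an alpha2delta-like protein (log2 fold change 0.60, SE 0.10, edgeR adjusted p 0.0527), Stac2, a cytoplasmic partner of L-type channels (-2.62, SE 0.45, adjusted p 0.0552), Nrcam, an adhesion molecule of the axon initial segment (0.61, SE 0.12, adjusted p 0.0621), and Fgf11, of the family of sodium channel-binding FGF homologous factors (-0.60, SE 0.14, adjusted p 0.0890). Stac2 had 443.5, 198 and 415 normalized counts in shCtrl and 35.5, 93.1 and 42.5 in shYthdf2. Without replicate 2 the log2 fold change was -3.46 for Stac2, 0.73 for Nrcam, 0.63 for Cachd1 and -0.59 for Fgf11.

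Of 25 genes of calcium handling, all were tested, and 1 passed the adjusted threshold. Atp2b2, a calcium pump of the plasma membrane, fell by 1.01 on the log2 scale (SE 0.11, edgeR adjusted p 0.0299), from 9555, 7850.4 and 9321 normalized counts in shCtrl to 4353, 4461 and 4416 in shYthdf2. Its KD libraries were alike and lay far below the controls. With replicate 1 or 4 of either group left out, edgeR called 0 of all genes, Atp2b2 included, and without shCtrl replicate 2 its adjusted p was 0.00088. At an unadjusted p under 0.05, 4 genes of the list were higher and 2 lower, 24.0% of the list against 20.1% of all genes tested. The median of the list was 0.08, against 0.01 for all genes tested. The next smallest p-values were those of Ryr2, the calcium release channel of the endoplasmic reticulum (0.69, SE 0.15), Camk2a, the alpha subunit of calmodulin kinase (1.14, SE 0.27), and Slc8a3, a sodium-calcium exchanger (-0.60, SE 0.16). With the replicate number as a block, Camk2a passed as well (edgeR adjusted p 0.0468), which made 2 genes. Without replicate 2 the log2 fold change was -1.11 for Atp2b2, 0.94 for Ryr2, 1.33 for Camk2a and -0.83 for Slc8a3.

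The 10 genes of the sodium leak channel and the sodium pump were all tested. The list had 0 genes past the adjusted threshold and a median of 0.11, against 0.01 for all genes tested. At an unadjusted p under 0.05, 2 genes were higher and 1 lower, 30.0% of the list against 20.1% of all genes tested. They were Atp1b1, a beta subunit of the pump (-1.03, SE 0.23), Unc80, of the leak channel complex (0.58, SE 0.14), and Fam155a, of the same complex (0.46, SE 0.17). With the replicate number as a block, Unc80 passed (edgeR adjusted p 0.0450). Without replicate 2 the log2 fold change was -1.46 for Atp1b1, 0.63 for Unc80 and 0.53 for Fam155a.

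The cells of the culture were checked by marker genes. The summed normalized counts of 11 granule neuron markers, with Zic1 and Neurod1 among them, were 184440 to 191440 in shCtrl and 184370 to 194420 in shYthdf2, and overlapped. Single markers differed at an unadjusted p under 0.05 in edgeR, with Neurod1 at -0.32 and Cbln1 at -0.64 on the log2 scale and Vsnl1 at 0.86. In bulk samples, fewer cells of a type and less RNA per cell cannot be told apart. The 6 markers of GABAergic interneurons, which also use Scn1a, summed to 7694 to 10857 in shCtrl and 11721 to 14465 in shYthdf2, without overlap. Gad1, the GABA-synthesizing enzyme, had a log2 fold change of 0.49. At an unadjusted p under 0.05, 2 of the 6 were higher and 0 lower, 33.3% against 20.1% of all genes tested. The 6 Purkinje cell markers summed to 1880.5 to 2086 in shCtrl and 2514 to 2755 in shYthdf2, mostly from Rora (log2 fold change 0.61). Of the 5 tested, 2 had a positive log2 fold change and 3 a negative one, with a median of -0.13. Calb1 was at -0.45 and the defining marker Pcp2 at -0.22 on the log2 scale. Pcp2 had 28.7 to 44.4 normalized counts in every library. The 4 unipolar brush cell markers summed to 9135 to 9739 in shCtrl and 7676 to 8346 in shYthdf2, with Eomes at -1.80 on the log2 scale. With the replicate number as a block, the markers Vsnl1, Gad1 and Rora passed, each at an edgeR adjusted p of 0.0450. Without the block their edgeR adjusted p was 0.190, 0.0876 and 0.0506. For the astrocyte, oligodendrocyte, microglia, vascular and progenitor lists the groups overlapped. In shCtrl, the 6 oligodendrocyte markers summed to 4635, 15363 and 4411 in replicates 1, 2 and 4, so the replicate 2 control also stood apart there. Of the vascular and fibroblast markers, the endothelial Cldn5 was at 0 in 5 of the 6 libraries, while Col1a1 had 1095 to 3148 normalized counts. The part of these cell types in the channel results was not tested.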

How the data were processed

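The authors deposited raw read counts per gene, as whole numbers without normalization. By the methods of the study, HISAT and TopHat2 were the aligners, against GRCm38, and HTSeq did the counting, whereas the submitters' processing notes name Bowtie 0.12.2 and mm9; the strand setting of the counting is not given in the sources used here. Genes were matched to the GENCODE annotation of GRCm38 (52403 of 53421), and 785 gene models outside the annotation and 233 other unmatched ones stayed in the table. Columns were assigned to groups by the library names, never by values.

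The test was that of edgeR 4.0.16 (R 4.3.3) on the group alone: filterByExpr (minimum count 10, total 15), TMM and the quasi-likelihood test, with Benjamini-Hochberg adjustment over 17214 genes. The depth of 17246821 to 21546595 counts limits genes with few counts. RPKM used the summed exon length. Single values were compared by two-sided exact permutation tests. Scripts were tested on simulated data. Alternatives were RLE factors, no normalization factor, DESeq2 1.42.0, limma-voom (limma 3.58.1), other filters, the replicate block and each library left out, and, added after the data were seen, a batch term for replicate 2 and replicates 1 and 4 alone. Figures used matplotlib 3.10.9.

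Pairing by replicate number was checked by correlating deviations from the group means between libraries of opposite groups. Same-numbered libraries correlated at 0.252, 0.360 and 0.322 for replicates 1, 2 and 4, all above 0.1. Replicates 1 and 4 also correlated across numbers, at 0.101 and 0.126, and replicate 2 with the others at -0.317 to -0.238. Because replicate 2 stood apart in both groups, these values alone cannot establish the pairing. The numbers were taken to pair the libraries only for the same-numbered differences and the replicate block. As in the methods of the study, the values given are otherwise those without a block, and the exact permutation tests did not pair either. Blocked values are given where they change a call.

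Members and gene lists were chosen with earlier results of these data known. Results of a few members and 1 sequence are not reported here. The other members are named, with all libraries where the unadjusted p was under 0.05, for the highest gene of each family and for Cacna1a, Scn2a and Scn8a, and Cacna1b was given likewise. Genes of the partner lists were named when past an adjusted p of 0.05, and otherwise up to 4 a list by the smallest p.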

Additional observations from a re-analysis of the deposited data

How the results depend on the processing

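The number of channel genes past the adjusted threshold, 0 with edgeR on the group alone, was also 0 with RLE factors, limma-voom and the replicate block. It was 1 without a normalization factor and 1 with at least 10 counts in every library (Scn3a in both), 3 without the filter (Scn3a, Scn9a and Cacna1g), 4 with DESeq2, 15 with a batch term for replicate 2 and 23 with replicates 1 and 4 alone. Of all genes, these fits called 0.627%, 0.862%, 1.98%, 7.67%, 22.1% and 52.7%, in that order. With 1 library left out it was 0 to 11, the highest without shCtrl replicate 2. The number at an unadjusted p, 13, was 23 with replicates 1 and 4 alone and 5 to 17 with 1 library left out: 6 without shCtrl replicate 1 or 4 and 5 and 6 without shYthdf2 replicates 1 and 4. The share of all genes at an unadjusted p moved as well, from 20.1% to 57.6% with replicates 1 and 4 alone and 34.0% without shCtrl replicate 2. It was 11.3% and 11.9% without shCtrl replicates 1 and 4, and 11.2% and 11.7% without shYthdf2 replicates 1 and 4. The replicate block changed no adjusted call among the channel genes and gave 16 at an unadjusted p; it moved the calcium handling list to 2 and the sodium leak and pump list to 1. The calcium channel median, 0.12, was 0.07 (without shYthdf2 replicate 4) to 0.17 with 1 library left out. The sodium channel median, 0.24, was 0.28 without a normalization factor, 0.44 with limma-voom, 0.29 without the filter, 0.35 with the stricter filter, 0.28 with replicates 1 and 4 alone and 0.25 to 0.35 with 1 library left out. The 13 genes kept their sign in all 195 values under the alternatives. This is in part a consequence of choosing them by their p in the same libraries. Over all members tested, 27 of 477 values had the other sign, and 10 members changed sign at least once. Cacng5, which had few counts, went from -0.47 to 1.00 with replicates 1 and 4 alone. The cause of these differences was not tested.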
